A study of Mus musculus with 6 samples.

Results

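The 46 genes described here encode the contractile apparatus, the stress fibres and the focal adhesions of lung mesenchymal stromal cells (LMSCs). They were listed by the function of their products, with earlier results of these data known. The list holds 12 smooth-muscle type contractile genes, 7 cytoplasmic actins and crosslinkers, 3 non-muscle myosin genes, 4 tropomyosins, 3 non-muscle calponins and transgelins, the intermediate filament gene Vim, 9 focal adhesion genes, 5 genes of LIM-domain proteins and 2 transcription factor genes. All 46 were found among the 34745 genes measured by RNA-seq. Of these genes, 10279 had a mean of at least 1 FPKM (fragments scaled by gene length and library total) over the 6 libraries and were tested. The tested genes included 45 of the 46. The exception was Synpo2 (synaptopodin 2, an actin-bundling protein), at 0.39 to 1.14 FPKM.

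LMSCs were grown from lungs of MMTV-PyMT mice, in which a mouse mammary tumour virus promoter drives the polyoma middle T antigen in the mammary epithelium, so every mouse here carried the transgene. The adenoma stage (A-LMSCs, E-LMSCs in the labels) came, per the labels, from mice aged 6 to 7 weeks, the pre-metastatic stage (PM-LMSCs, L-LMSCs in the labels) from mice aged 9 to 10 weeks and the metastatic stage (M-LMSCs) from mice aged 13 to 14 weeks, with 2 libraries a stage. The study's methods give older ages for A and PM mice than the labels do. All were cultured cells at passage 3, selected by adherence in serum-containing medium and by removal of CD45+ cells, so the levels are those of cells on culture plastic. Stage and age of the mice rose together and cannot be told apart, and LMSCs of tumour-free mice were not analysed here.

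Stress fibres are bundles of actin filaments crosslinked by alpha-actinin, filamin and palladin, and pulled by myosin once its light chain has been phosphorylated. They end at focal adhesions, where talin and kindlin activate integrins and where vinculin, zyxin, paxillin and the ILK, PINCH and parvin complex join integrins to actin. In fibroblasts that turn into myofibroblasts, smooth-muscle alpha-actin (Acta2) enters these bundles. Many of the genes are targets of serum response factor (Srf), whose cofactor MRTF-A (Mkl1) is held by monomeric actin and is freed when actin polymerizes.

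Srf binds a short DNA element, the CArG box, which has CC and GG around a run of A and T letters and reads as a CArG box on either strand. Because Srf and Mkl1 are themselves members, promoters were searched for the strict form of this element. RefSeq windows on GRCm38.p6, from 250 bases before to 50 bases after an annotated start, were on hand for 39 of the 46 genes. None was on hand for Actb, Actg2, Mkl1, Myh11, Parva, Pxn and Tagln, so their promoters were not searched. A strict CArG box lay in at least 1 window of 9 of the 39 genes (23.1%) and of 488 of 27025 genes in all (1.81%). The stretches around these boxes are printed here 5′ to 3′ on the strand of the gene, with the CArG box in capitals. Fhl2 has a box in each of 2 windows, and Srf has 2 boxes in 1 window.
Fhl2, chr1:43196828-43196877, minus strand: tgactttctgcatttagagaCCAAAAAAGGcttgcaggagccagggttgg
Fhl2, chr1:43163963-43164012, minus strand: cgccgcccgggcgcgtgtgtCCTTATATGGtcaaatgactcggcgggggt
Myl9, chr2:156775283-156775332, plus strand: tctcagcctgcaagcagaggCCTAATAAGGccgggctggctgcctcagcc
Cnn2, chr10:79988524-79988573, plus strand: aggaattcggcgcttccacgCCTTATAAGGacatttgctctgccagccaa
Myl6, chr10:128493030-128493079, minus strand: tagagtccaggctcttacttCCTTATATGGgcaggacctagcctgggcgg
Actg1, chr11:120348556-120348605, minus strand: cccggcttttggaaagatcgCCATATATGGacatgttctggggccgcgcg
Vcl, chr14:20929151-20929200, plus strand: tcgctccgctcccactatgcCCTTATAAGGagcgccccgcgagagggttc
Fermt2, chr14:45530240-45530289, minus strand: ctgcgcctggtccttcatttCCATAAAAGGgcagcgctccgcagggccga
Srf, chr17:46556195-46556264, minus strand: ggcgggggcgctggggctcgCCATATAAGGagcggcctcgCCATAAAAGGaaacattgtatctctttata
Fhl1, chrX:56779561-56779610, plus strand: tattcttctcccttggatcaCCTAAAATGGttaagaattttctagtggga
All of these boxes lay before the start site. The nearest to it was 21 bases away (the second Fhl2 window) and the farthest 217 bases away (Vcl). A match is a run of letters and was not measured as a binding site. Acta2, Cnn1, Des, Palld, Myh10 and Fblim1, whose values are given below, had no strict match in their windows. Boxes that depart from the strict form or lie outside the windows were not searched for, so a gene without a match may still have one.

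The contractile genes were among the most abundant messages of LMSCs. Acta2 had the highest FPKM of all genes in each of the 6 libraries, and Tagln (transgelin, or SM22, an actin-binding protein) held rank 3 or 4. By mean FPKM, 11 of the 46 genes stood among the top 100 and 23 among the top 250. The 46 genes together took 6.23% to 7.01% of the summed FPKM of a library, and Acta2 alone took 1.88% to 2.36%. The lowest tested member was Pxn (paxillin, an adhesion scaffold), at 8.77 to 9.62 FPKM. The plot of levels by library shows that the span between genes, from Synpo2 to Acta2, was far wider than the span between libraries for any gene.

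**Figure D1:**
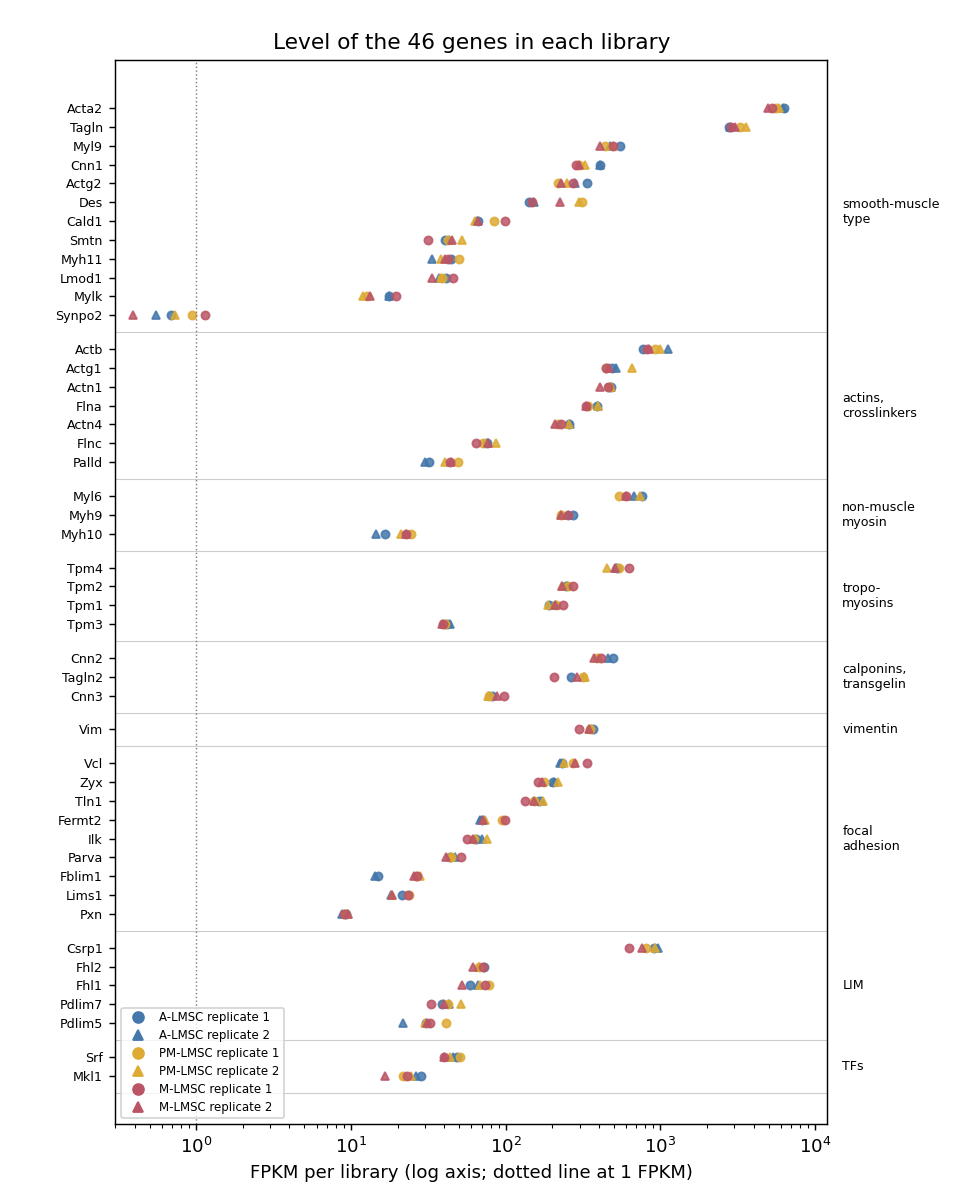
FPKM (log axis) of each of the 46 genes in each of the 6 libraries, grouped by role, with colours for the stage and shapes for the replicate number. The 6 points of a gene lie close together while genes differ widely, with Acta2 between 4986 and 6311 FPKM and Synpo2 below or near the dotted line at 1 FPKM.

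Library depth, estimated from the spacing of low FPKM values, was between about 14820000 and 20760000 fragments. The labelled cell type was checked against marker lists. Markers of mesenchymal stroma summed to 1589 to 2435 FPKM, with Col1a1, Col1a2 and Itgb1 leading. The lowest of them, Ly6a, which encodes the LMSC marker Sca1, was at 1.99 to 5.74 FPKM. Of 10 markers of vascular smooth muscle and pericytes, 4 had a mean under 1 FPKM, among them Rgs5, Kcnj8 and Abcc9, and Higd1b was at 0 in each library. The list summed to 51.1 and 49.8 FPKM in A-LMSCs, 40.2 and 43.6 in PM-LMSCs and 37.9 and 43.1 in M-LMSCs. Endothelial markers summed to 1.74 to 3.01 FPKM, highest in M-LMSCs, and 7 of the 8 had a mean under 1 FPKM. The exception, Kdr, was at 1.11 to 2.31 FPKM and was called higher with the block for M-LMSC (limma adjusted p = 0.0285). The defining endothelial marker Pecam1 stayed at or below 0.034 FPKM and Ptprc, which encodes CD45, at or below 0.099 FPKM. Markers of mesothelium summed to 128 and 188 FPKM in A-LMSCs, 312 and 439 in PM-LMSCs and 207 and 520 in M-LMSCs. Their 8 genes were all tested, and with the replicate block described below limma called all 8 for both later stages, 7 higher and Krt19 lower, against 2.05% of all genes. Without the block it called 1 (Krt19), against 0.126% of all genes, while Upk1b reached 257 FPKM. Haematopoietic markers summed to 137 and 129 FPKM in A-LMSCs, 173 and 79.7 in PM-LMSCs and 412 and 300 in M-LMSCs, most of it Lyz2 (lysozyme). With the block 6 of the 7 tested were called for M-LMSC against A-LMSC, where 3.92% of all genes were, and 0 without it. Epithelial markers summed to 3.72 and 6.95 FPKM in A-LMSCs, 10.7 and 18.7 in PM-LMSCs and 11.5 and 24.5 in M-LMSCs. Epcam was at 0 in all 4 A-LMSC and PM-LMSC libraries and at 0.326 and 0.473 FPKM in M-LMSCs, and the keratin genes Krt8 and Krt18 were higher in all 4 later libraries and called with the block for both later stages. The part of these cells in the differences below was not tested, and in bulk RNA fewer cells of a type and less RNA per cell cannot be told apart.

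The contrasts asked whether the contractile programme of LMSCs changed as the lung passed from the adenoma to the pre-metastatic and metastatic stages. The test was limma on log2(FPKM + 1) over all 10279 genes, with p-values adjusted by the Benjamini-Hochberg method, and a gene was called at an adjusted p under 0.05. A fold change on this scale is slightly understated for low genes. The PM-LMSC and M-LMSC contrasts share the A-LMSC libraries. Between PM-LMSC and A-LMSC, 0 of the 45 tested members were called, against 0.0389% of all genes tested. Between M-LMSC and A-LMSC the count was 0, against 0.0681%, and between M-LMSC and PM-LMSC it was 0, against 0.0292%. For the mean of both later stages against A-LMSC, 1 member was called, against 0.126% of all genes. This member was Fblim1, which was higher. At an unadjusted p under 0.05, limma gave 7 members for PM-LMSC (6.53% of all genes), 7 for M-LMSC against A-LMSC (14.6%), 2 for M-LMSC against PM-LMSC (8.94%) and 9 for both later stages (11.2%). No pairing of libraries is stated, but those with the same replicate number deviated together in these data. A second limma fit therefore held the number as a block. It called 1 member for PM-LMSC (0.292% of all genes), 2 for M-LMSC against A-LMSC (3.92%), 0 for M-LMSC against PM-LMSC (0.418%) and 2 for both later stages (2.05%). The genes called with the block were Fblim1 and Myh10.

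Most of the fold changes were small. For both later stages against A-LMSC, the log2 fold change was under 0.5 in size for 41 of the 45 tested members, where 95.7% of all tested genes were under it. The median log2 fold change of the members was -0.03, with 18 values above 0 and 27 below it, and the median over all genes tested was 0.02. For M-LMSC against A-LMSC the median was -0.12 over the members and 0.03 over all genes, and for PM-LMSC it was -0.02 and 0.01. For 6 members (Tagln, Palld, Myh10, Vcl, Fblim1 and Fermt2) each of the 4 later libraries exceeded both A-LMSC libraries, as it did for 10.7% of all genes tested. They lay below both for 8 members (Acta2, Actg2, Cnn1, Actn1, Tpm3, Cnn2, Vim and Mkl1), a pattern that 10.7% of all genes also had. The 14 members without overlap stand against 21.4% of all genes. For the other 32 members, Synpo2 among them, the 4 later libraries were not all on one side of both A-LMSC libraries. The plot of single libraries shows the 14 members without overlap with their later-stage points on one side of 0.

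**Figure D2:**
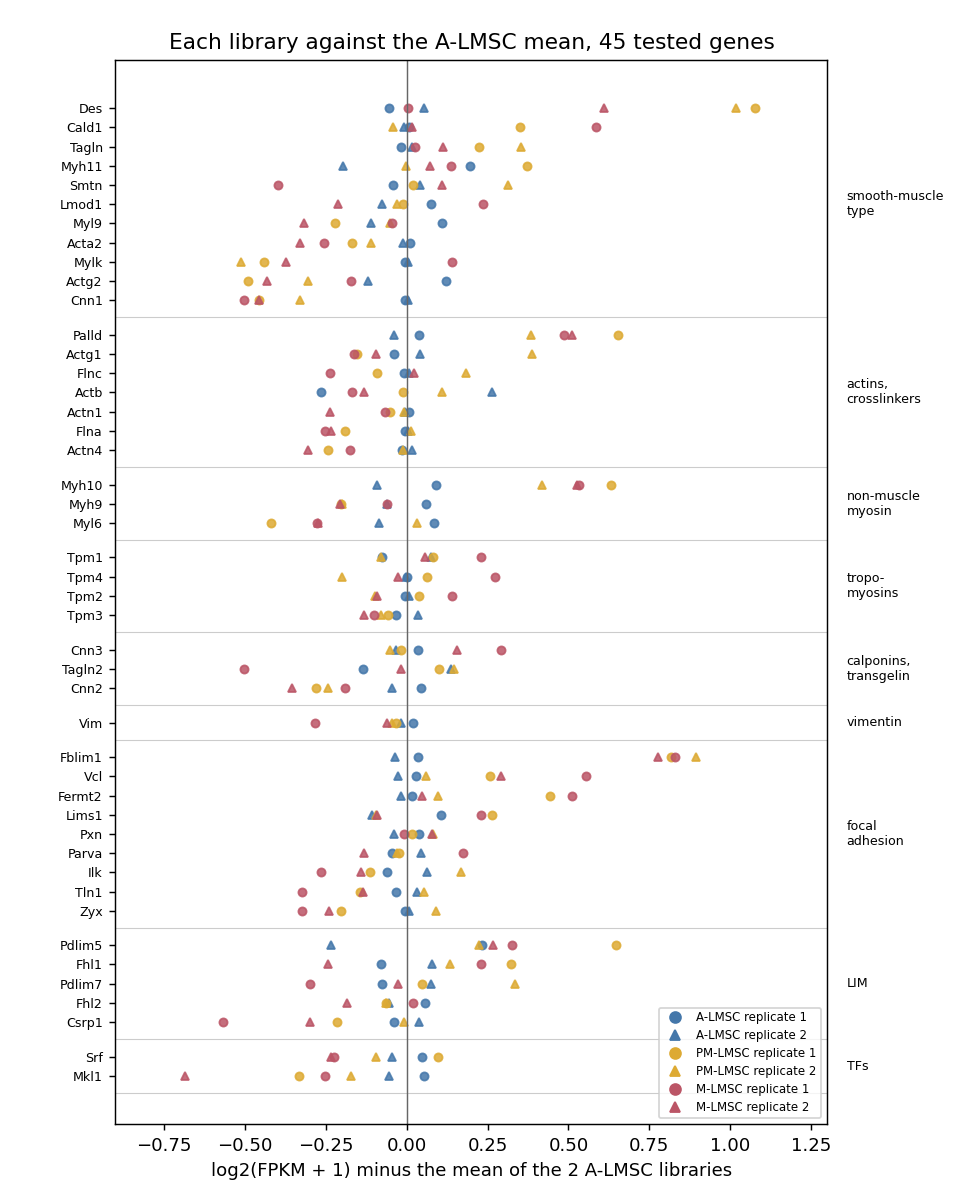
log2(FPKM + 1) of each library minus the mean of both A-LMSC libraries, for the 45 tested genes grouped by role and ordered by the mean of the later stages. Fblim1, Palld and Myh10 have all 4 later-stage points to the right of both A-LMSC points, Cnn1 and Acta2 have them to the left, and Des has its PM-LMSC points farthest to the right.

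**Figure D3:**
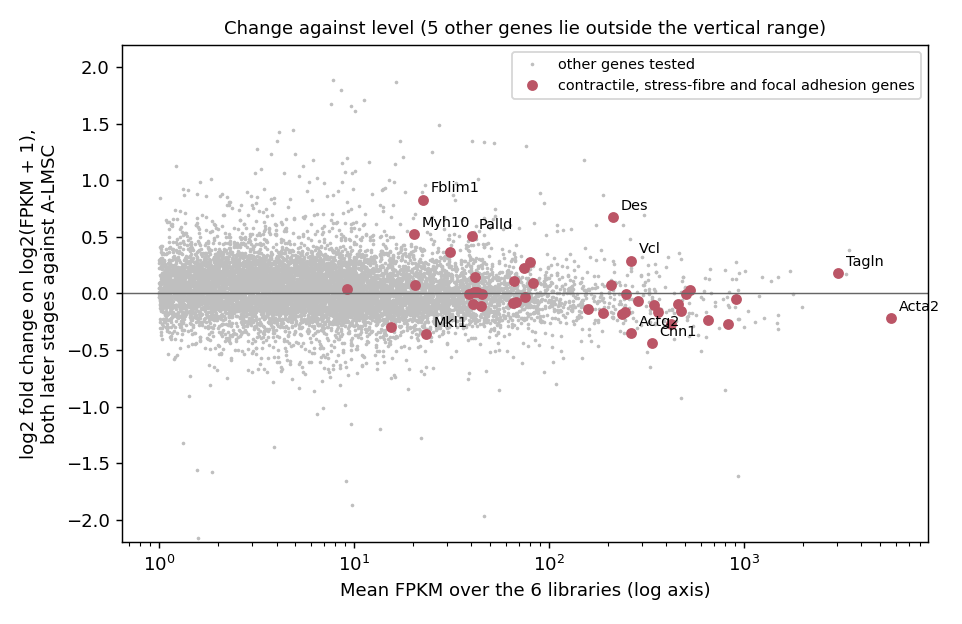
log2 fold change of both later stages against A-LMSC, on log2(FPKM + 1), against the mean FPKM (log axis) of the 10279 tested genes, with the 45 members as large points. Fblim1 (0.83) and Des (0.68) lie above the other members, Cnn1 (-0.44) lies lowest, and Acta2 (-0.22) stands at the right end. 5 other genes lie outside the vertical range.

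The smooth-muscle actins were lower at the later stages without passing the test. Acta2 (ENSMUSG00000035783, chr19:34241090-34255590, minus strand, mm10) encodes the alpha-actin of smooth muscle and myofibroblasts. It stood at 6311 and 6214 FPKM in the A-LMSC libraries, 5568 and 5804 in the PM-LMSC libraries and 5246 and 4986 in the M-LMSC libraries. The later-stage libraries were all below the A-LMSC libraries and M-LMSCs were below PM-LMSCs, with means of 6262 ± 68.4 FPKM, 5686 ± 167 FPKM and 5116 ± 184 FPKM (SD, n = 2). The limma log2 fold change was -0.14 (SE 0.14, adjusted p = 0.892) for PM-LMSC and -0.29 (SE 0.14, adjusted p = 0.395) for M-LMSC. For both later stages it was -0.22, with a 95% interval of -0.51 to 0.08. Actg2, the gamma-actin of visceral smooth muscle, was at 334 and 282 FPKM in the A-LMSC libraries, 218 and 248 in the PM-LMSC libraries and 272 and 227 in the M-LMSC libraries. Its libraries were also lower at both later stages, and the log2 fold change for both was -0.35 (SE 0.13, limma adjusted p = 0.405).

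Cnn1 (calponin 1, which binds actin and slows myosin, chr9:22099216-22109630, plus strand) was the member with the lowest fold change at the later stages. It was at 405 and 408 FPKM in the A-LMSC libraries, 296 and 323 in the PM-LMSC libraries and 286 and 296 in the M-LMSC libraries, so that the A-LMSC libraries differed by under 3 FPKM and all 4 later libraries lay below them. The mean at M-LMSC was 0.717 times that at A-LMSC. The log2 fold change for both later stages was -0.44 (SE 0.10), which missed the threshold in limma without the block (adjusted p = 0.206) and with it (adjusted p = 0.0602), with a range of 0.0602 to 0.999 over all settings. The summed markers of vascular smooth muscle and pericytes were lower in each later library (37.9 to 43.6 FPKM) than in both A-LMSC libraries (51.1 and 49.8 FPKM). The lower sum lay mainly in Ndufa4l2 in PM-LMSCs, and in Ndufa4l2 and Cspg4 in M-LMSCs, so it does not describe the list as a whole. Of the tested genes of this list, 3 had a log2 fold change above 0 for both later stages and 3 below it. Ndufa4l2 alone was lower in all 4 later libraries (5.15 to 19.0 FPKM, against 20.7 and 21.4 in A-LMSCs), and Notch3 and Mcam were higher in all 4. Cspg4 was at 13.4 to 14.9 FPKM in A-LMSCs and PM-LMSCs and at 6.22 and 8.59 in M-LMSCs. It was called lower with the block for M-LMSC against A-LMSC (limma adjusted p = 0.0250) and PM-LMSC (0.0473), and not without it. The part of these cells in the Acta2, Actg2 and Cnn1 values was not tested.

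Tagln was higher in the later libraries, without a call. It was at 2761 and 2829 FPKM in the A-LMSC libraries, 3260.5 and 3569 in the PM-LMSC libraries and 2848 and 3022 in the M-LMSC libraries, and each later library was above both A-LMSC libraries, the PM-LMSC libraries most. The log2 fold change for both later stages was 0.18 (SE 0.12, limma adjusted p = 0.59), and it turned to -0.03 under quantile normalization, which gives a fixed value to each rank. Tagln overlaps the gene Pcsk7 on the opposite strand over 1349 exonic bases, and whether counting used the strand is not given in the sources used here.

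Des (desmin, the intermediate filament of muscle cells, chr1:75360329-75368579, plus strand) had its highest values at the pre-metastatic stage. It was at 141.7 and 153 FPKM in the A-LMSC libraries, 311 and 299 in the PM-LMSC libraries and 147 and 225 in the M-LMSC libraries. Both PM-LMSC libraries were above both A-LMSC libraries, while 1 M-LMSC library lay among the A-LMSC values and the other lay between the A-LMSC and PM-LMSC values. The PM-LMSC mean was 2.07 times and the M-LMSC mean 1.26 times the A-LMSC mean. The limma log2 fold change was 1.05 (SE 0.20) for PM-LMSC, with an adjusted p of 0.315 without the block and 0.0609 with it. For M-LMSC against PM-LMSC it was -0.74 (SE 0.20, adjusted p = 0.367), and for M-LMSC against A-LMSC 0.31 (SE 0.20, adjusted p = 0.494). The PM-LMSC value passed the threshold in limma when the spread was taken from the stages compared alone (adjusted p = 0.0298) or when M-LMSC replicate 1 (0.0291) or replicate 2 (0.0305) was left out, and over all settings the adjusted p ranged from 0.0291 to 1. Without M-LMSC replicate 1 the fold change for both later stages also passed (0.83, adjusted p = 0.0205), and without M-LMSC replicate 2 the fall from PM-LMSC to M-LMSC passed (-1.04, adjusted p = 0.0486). Des made up 27.9% and 30.0% of the summed FPKM of Des and Vim in A-LMSCs, 46.8% and 46.1% in PM-LMSCs and 33.2% and 39.4% in M-LMSCs. The mesothelial marker sum was also higher in each PM-LMSC library than in either A-LMSC library, and its part in the Des values was not tested. Des overlaps Gm15179 on the opposite strand over 220 exonic bases.

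The other smooth-muscle genes gave no call. Myl9 (the regulatory light chain of smooth-muscle and non-muscle myosin) was at 549 and 472 FPKM (A-LMSC), 437 and 491 FPKM (PM-LMSC) and 493 and 408 FPKM (M-LMSC). Mylk, which encodes the kinase that phosphorylates this light chain, was at 17.5 and 17.6 FPKM (A-LMSC), 12.7 and 12.0 FPKM (PM-LMSC) and 19.4 and 13.3 FPKM (M-LMSC). Mylk was lower in both PM-LMSC libraries than in both A-LMSC libraries, whereas the M-LMSC libraries lay on either side of A-LMSCs. Myh11 (smooth-muscle myosin heavy chain) ranged over 33.4 to 50.1 FPKM, Lmod1 (leiomodin 1, an actin nucleator) over 33.4 to 45.9 FPKM, Smtn (smoothelin) over 31.5 to 52.1 FPKM and Cald1 (caldesmon) over 63.7 to 98.8 FPKM. The stages overlapped for the first 3. For Cald1 both M-LMSC libraries (98.8 and 66.3 FPKM) were above both A-LMSC libraries (65.9 and 65.2 FPKM), replicate 2 only narrowly. Of the 11 tested genes of this group, 5 had a log2 fold change above 0 for both later stages and 6 below it, and 0 were called.

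**Figure D4:**
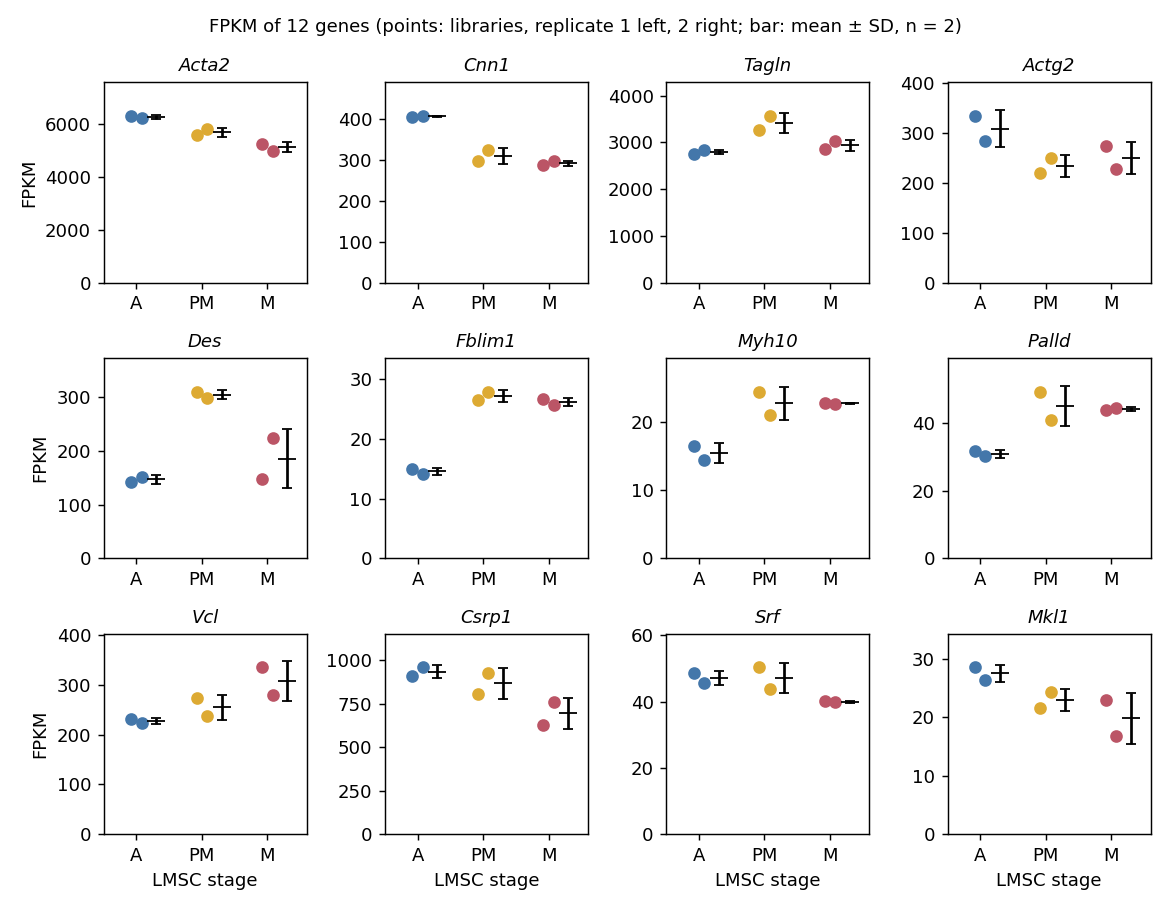
FPKM by stage for 12 members, with a point for each library (replicate 1 on the left, 2 on the right) and a bar for the mean ± SD (n = 2), on axes that start at 0. Acta2 and Cnn1 are lower and Fblim1, Myh10 and Palld higher in every later-stage library than in both A-LMSC libraries, and Des is highest in PM-LMSCs.

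Among the cytoplasmic actins and crosslinkers, Palld had the largest fold change. Palld (palladin, an actin crosslinker of stress-fibre dense regions, chr8:61511433-61902690, minus strand) was at 31.8 and 30.2 FPKM in the A-LMSC libraries, 49.3 and 40.8 in the PM-LMSC libraries and 43.8 and 44.5 in the M-LMSC libraries. All later libraries were above both A-LMSC libraries, and the means of PM-LMSC and M-LMSC were 1.45 and 1.43 times that of A-LMSC. The limma log2 fold change for both later stages was 0.51 (SE 0.11), with an adjusted p of 0.2 without the block, 0.0518 with it and 0.0518 to 0.999 over all settings. Actb (beta-actin) was at 772 and 1113 FPKM in the A-LMSC libraries, 919 and 999 in the PM-LMSC libraries and 825 and 846 in the M-LMSC libraries. Its A-LMSC libraries were farther apart than any 2 later libraries, and its log2 fold change for both later stages was -0.05 (SE 0.16, limma adjusted p = 0.908), with no direction that held in every setting.

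The remaining members of this group gave no call. Actg1 (cytoplasmic gamma-actin) was at 446 to 653 FPKM, and part of its reads can be shared with the pseudogene Actg-ps1, listed at a mean of 32.7 FPKM. The alpha-actinins Actn1 and Actn4, which crosslink actin filaments, were at 406 to 482 FPKM and 208 to 261 FPKM. Actn1 was lower in all 4 later libraries than in both A-LMSC libraries, by a log2 fold change of -0.09 (SE 0.10, limma adjusted p = 0.723). The filamins Flna and Flnc, which hold actin filaments in networks, were at 329 to 395 FPKM and 64.4 to 86.5 FPKM. Smooth-muscle actins made up 84.1% and 80.0% of the summed FPKM of Acta2, Actg2, Actb and Actg1 in A-LMSCs, 80.9% and 78.6% in PM-LMSCs and 81.3% and 79.9% in M-LMSCs. The stages overlapped, and the actin pool was mostly of the smooth-muscle type in every library.

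In the non-muscle myosins, Myh10 was called with the replicate block and not without it. Myh10 (the heavy chain of myosin IIB, chr11:68691559-68816632, plus strand) was at 16.5 and 14.5 FPKM in the A-LMSC libraries, 24.5 and 21.02 in the PM-LMSC libraries and 22.8 and 22.7 in the M-LMSC libraries. The 4 later libraries were above both A-LMSC libraries, and the means of both later stages were 1.47 times the A-LMSC mean. The limma log2 fold change was 0.53 (SE 0.12, adjusted p = 0.444) for PM-LMSC, 0.53 (SE 0.12, adjusted p = 0.145) for M-LMSC and 0.53 (SE 0.11, adjusted p = 0.191) for both. With the replicate block the limma adjusted p was 0.104 for PM-LMSC, 0.0443 for M-LMSC and 0.0441 for both, and with the block and a correction for GC content and length it was 0.056 for both. Over all settings the adjusted p for both later stages ranged from 0.0441 to 0.999, while the fold change stayed between 0.44 and 0.62.

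Myh9 and Myl6 gave no call in either fit. Myh9 (the heavy chain of myosin IIA) was at 274 and 252 FPKM in the A-LMSC libraries, 228 and 228 in the PM-LMSC libraries and 252 and 228 in the M-LMSC libraries, with both PM-LMSC libraries below both A-LMSC libraries. Myl6 (the essential light chain) was the most abundant of this group, at 764 and 679.7 FPKM (A-LMSC), 538 and 737 FPKM (PM-LMSC) and 595 and 596 FPKM (M-LMSC), and its log2 fold change for both later stages was -0.23 (SE 0.15, limma adjusted p = 0.577). Myh10 made up 4.94% and 4.83% of the summed FPKM of Myh9, Myh10 and Myh11 in A-LMSCs, 8.10% and 7.30% in PM-LMSCs and 7.20% and 7.81% in M-LMSCs. The later values of this share did not overlap the A-LMSC values, while Myh9 stayed the leading heavy chain with 75.4% to 84.0%. With 2 libraries a stage, an exact permutation test of such a share cannot reach the threshold, and none was run. Tropomyosin shares, in contrast, overlapped between stages, as the plot of shares shows.

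**Figure D5:**
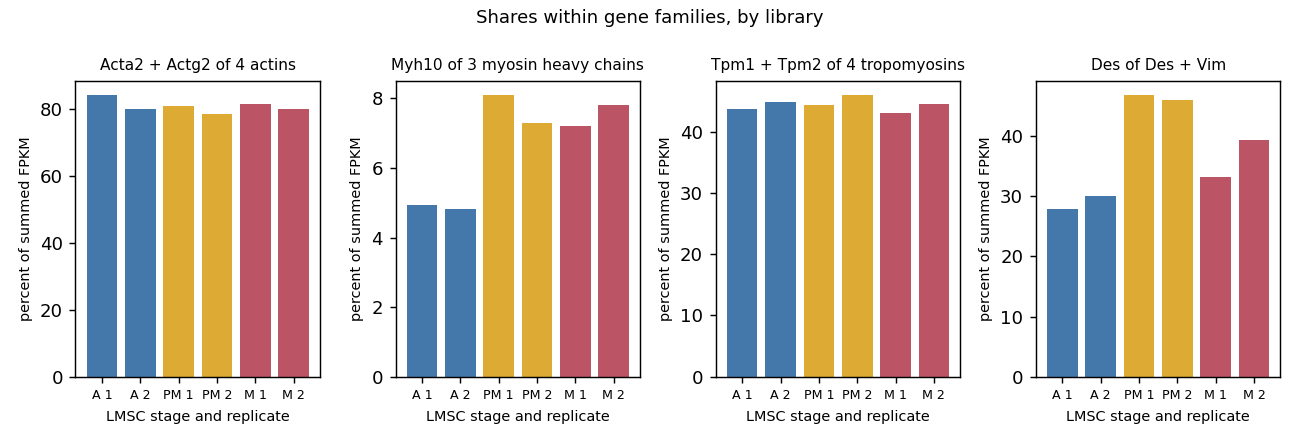
Percent of the summed FPKM of a family in each library (bars start at 0): Acta2 with Actg2 among 4 actins, Myh10 among 3 myosin heavy chains, Tpm1 with Tpm2 among 4 tropomyosins, and Des of Des and Vim. The Myh10 bars are 4.83% to 4.94% in A-LMSCs and 7.20% to 8.10% at the later stages, the Des bars are tallest in PM-LMSCs, and the actin and tropomyosin bars overlap between stages.

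The tropomyosins, which wrap along actin filaments and set which proteins bind them, gave no call. Tpm4 was the highest, at 521 and 519 FPKM (A-LMSC), 543 and 453 FPKM (PM-LMSC) and 629 and 510.3 FPKM (M-LMSC), with a log2 fold change of 0.03 (SE 0.13, limma adjusted p = 0.944) for both later stages and a 95% interval of -0.29 to 0.35. Tpm1 was at 189 to 234 FPKM and Tpm2 at 231 to 273 FPKM. Tpm3 was at 41.4 and 43.5 FPKM in the A-LMSC libraries, 40.8 and 40.1 in the PM-LMSC libraries and 39.5 and 38.7 in the M-LMSC libraries. Its later libraries were lower, by a log2 fold change of -0.09 (SE 0.09, limma adjusted p = 0.678). Tpm3 is uncertain, since a near-identical copy, Tpm3-rs7, was listed at a higher mean of 61.2 FPKM. Both together were at 98.7 to 106 FPKM. The share of Tpm1 and Tpm2 in the 4 genes was 43.6% and 44.9% in A-LMSCs, 44.3% and 45.98% in PM-LMSCs and 43.1% and 44.5% in M-LMSCs.

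Of the non-muscle calponins and transgelins, Cnn2 (calponin 2) was at 490.4 and 461 FPKM in the A-LMSC libraries, 391 and 401 in the PM-LMSC libraries and 416 and 372 in the M-LMSC libraries. Its later libraries were all below the A-LMSC libraries, and the log2 fold change for both later stages was -0.27 (SE 0.10, limma adjusted p = 0.418). Cnn3 (calponin 3) was at 76.5 to 97.2 FPKM, with both M-LMSC libraries above the other 4. Tagln2 (transgelin 2) was at 206 to 324 FPKM, with both M-LMSC libraries below both PM-LMSC libraries and on neither side of A-LMSCs together. Vim (vimentin, the intermediate filament of mesenchymal cells) was at 365 and 356 FPKM (A-LMSC), 353 and 349.6 FPKM (PM-LMSC) and 296 and 346 FPKM (M-LMSC). Its log2 fold change for both later stages was -0.11 (SE 0.10, limma adjusted p = 0.693), and the means differed by less than the gap between the M-LMSC libraries.

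The focal adhesion gene Fblim1 was the member called. Fblim1 (migfilin, a LIM-domain protein that binds filamin and kindlin at adhesions, ENSMUSG00000006219, chr4:141576062-141606096, minus strand) was at 15.0 and 14.2 FPKM in the A-LMSC libraries, 26.4 and 27.9 in the PM-LMSC libraries and 26.7 and 25.7 in the M-LMSC libraries. The A-LMSC libraries differed by less than 1 FPKM and the 4 later libraries by under 3 FPKM, with no overlap. The means were 14.6 ± 0.54 FPKM, 27.2 ± 1.05 FPKM and 26.2 ± 0.712 FPKM (SD, n = 2), so that PM-LMSC was 1.86 times and M-LMSC 1.8 times A-LMSC. For both later stages the limma log2 fold change was 0.83 (SE 0.09, 95% interval 0.62 to 1.04, adjusted p = 0.0454). This was rank 81 of the rises and rank 9 of the p-values among all genes tested. With the replicate block the limma adjusted p was 0.0136. For PM-LMSC alone the log2 fold change was 0.86, with a limma adjusted p of 0.135 without the block and 0.0369 with it (limma adjusted p = 0.0613 with the block and the GC and length correction), and for M-LMSC it was 0.80, with 0.072 and 0.0171. M-LMSC and PM-LMSC differed by -0.05 (95% interval -0.30 to 0.19).

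The size of the Fblim1 difference held over the settings, and its call did not. Over all settings the fold change for both later stages stayed between 0.79 and 0.88 and the limma adjusted p ranged from 0.0136 to 0.598. It was above the threshold without A-LMSC replicate 1 (0.372) or 2 (0.598), without PM-LMSC replicate 1 (0.252) or 2 (0.183), with no filter on low genes (0.113) and with each library centred on its median (0.0624). The mesothelial marker sum was also higher in each later-stage library than in both A-LMSC libraries, from 207 to 520 FPKM against 128 and 188 FPKM. The sum was 207 and 520 FPKM in the M-LMSC libraries, in which Fblim1 was at 26.7 and 25.7 FPKM. The part of mesothelial cells in the Fblim1, Myh10 and Palld values was not tested.

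Vcl (vinculin, which links talin to actin) was the most abundant focal adhesion gene, at 233 and 224 FPKM in the A-LMSC libraries, 273 and 238 in the PM-LMSC libraries and 336 and 279 in the M-LMSC libraries. Each later library was above both A-LMSC libraries and M-LMSCs were highest. The log2 fold change for both later stages was 0.29 (SE 0.12, limma adjusted p = 0.44), and for M-LMSC it was 0.42 (SE 0.14, adjusted p = 0.247). Vcl overlaps Ap3m1 on the opposite strand over 2090 bases. Fermt2 (kindlin 2, an integrin activator) was at 70.0 and 68.2 FPKM (A-LMSC), 94.4 and 74.0 FPKM (PM-LMSC) and 98.8 and 71.4 FPKM (M-LMSC), above A-LMSCs in each later library but mainly in the libraries numbered 1.

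The core genes of the adhesion complex gave no call. Tln1 (talin 1) was at 134 to 175 FPKM, Zyx (zyxin) at 163 to 217 FPKM, Ilk (integrin-linked kinase) at 56.0 to 76.1 FPKM, Parva (alpha-parvin) at 41.3 to 51.3 FPKM and Lims1 (PINCH1) at 18.2 to 23.8 FPKM. For none of these 5 were all 4 later libraries on one side of both A-LMSC libraries, but both M-LMSC libraries were below both A-LMSC libraries for Tln1, Zyx and Ilk, and below both PM-LMSC libraries for Zyx and Ilk. Ilk shares 2461 of its 2744 exonic bases with Rrp8 and Taf10 on the opposite strand, the most of any member, so its values are uncertain where counting did not use the strand. Pxn was at 9.30 and 8.77 FPKM (A-LMSC), 9.14 and 9.62 FPKM (PM-LMSC) and 8.97 and 9.58 FPKM (M-LMSC). Its log2 fold change for both later stages was 0.04, with a 95% interval of -0.19 to 0.27. Of the 9 genes, 5 had a log2 fold change above 0 for both later stages and 4 below it.

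Among the genes of LIM-domain proteins, which sit on stress fibres and carry signals from them, Csrp1 (cysteine and glycine-rich protein 1) was the highest. It was at 908 and 958 FPKM in the A-LMSC libraries, 804 and 928 in the PM-LMSC libraries and 629 and 758 in the M-LMSC libraries, with both M-LMSC libraries below the other 4. The log2 fold change for both later stages was -0.27 (SE 0.13, limma adjusted p = 0.49) and for M-LMSC -0.43 (SE 0.15, adjusted p = 0.265). The haematopoietic marker sum was highest in the same M-LMSC libraries (412 and 300 FPKM, against 79.7 to 173 FPKM in the other 4), and its part in the lower M-LMSC values of Csrp1, Acta2 and Srf was not tested. Pdlim5 (a PDZ and LIM protein that binds alpha-actinin) was at 30.4 and 21.7 FPKM (A-LMSC), 40.8 and 30.2 FPKM (PM-LMSC) and 32.4 and 31.1 FPKM (M-LMSC), with a log2 fold change of 0.37 (SE 0.17, limma adjusted p = 0.492) and A-LMSC replicate 1 inside the later values. Pdlim7 was at 32.9 to 51.6 FPKM, with both M-LMSC libraries below both PM-LMSC libraries. Fhl1 was at 52.4 to 78.0 FPKM and Fhl2 at 61.6 to 72.9 FPKM, with both PM-LMSC libraries above both A-LMSC libraries for Fhl1 and below them for Fhl2.

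Srf and its cofactor gave no call. Srf was at 48.6 and 45.5 FPKM in the A-LMSC libraries, 50.4 and 43.9 in the PM-LMSC libraries and 40.1 and 39.8 in the M-LMSC libraries. The M-LMSC libraries were the lowest and differed by under 1 FPKM, while PM-LMSCs were on either side of A-LMSCs, and the log2 fold change was -0.23 (SE 0.11, limma adjusted p = 0.399) for M-LMSC and -0.11 (SE 0.10, adjusted p = 0.654) for both later stages. Mkl1 was at 28.5 and 26.4 FPKM in the A-LMSC libraries, 21.6 and 24.3 in the PM-LMSC libraries and 22.9 and 16.7 in the M-LMSC libraries. All 4 later libraries were below both A-LMSC libraries, and the log2 fold change for both later stages was -0.36 (SE 0.14, limma adjusted p = 0.427). These are levels of messages, and the place of the MRTF-A protein in the cell was not measured. Of the 9 genes whose CArG boxes are printed above, Vcl and Fermt2 were higher and Cnn2 lower in all 4 later libraries, where 21.4% of all genes were on one side or the other, and the later libraries of the other 6 were not all on one side of A-LMSCs.

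A wider list of 78 genes of actin signalling and turnover was set beside the members, of which 68 were tested. Without the replicate block 0 were called by limma in any of the 4 contrasts, and at an unadjusted p under 0.05 there were 8 for both later stages (11.2% of all genes), 11 for M-LMSC against A-LMSC (14.6%), 4 for PM-LMSC (6.53%) and 5 for M-LMSC against PM-LMSC (8.94%). With the block, 5 were called for M-LMSC (3.92% of all genes), 1 for M-LMSC against PM-LMSC (0.418%), 1 for both later stages (2.05%) and 0 for PM-LMSC (0.292%).

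The leading gene of the wider list was Acta1, the alpha-actin of skeletal muscle. It was at 181 and 179.8 FPKM in the A-LMSC libraries, 202 and 156 in the PM-LMSC libraries and 97.4 and 70.6 in the M-LMSC libraries, with both M-LMSC libraries below the other 4. The log2 fold change for M-LMSC was -1.11 (SE 0.19), with a limma adjusted p of 0.0974 without the block, 0.0171 with it and 0.0171 to 0.521 over all settings. For M-LMSC against PM-LMSC it was -1.09 (SE 0.19, limma adjusted p = 0.192 without and 0.0397 with the block, range 0.0397 to 0.498). Rnd3, which encodes a small GTPase that favours loss of stress fibres, was at 8.08 and 7.93 FPKM in the A-LMSC libraries, 13.5 and 12.0 in the PM-LMSC libraries and 13.9 and 11.8 in the M-LMSC libraries. All later libraries were higher, by a log2 fold change of 0.61 (SE 0.11, limma adjusted p = 0.147 without and 0.0319 with the block, range 0.0319 to 0.999). Bcar1 (p130Cas, a scaffold of focal adhesion signalling) was at 89.0 and 88.6 FPKM (A-LMSC), 84.97 and 79.4 FPKM (PM-LMSC) and 63.9 and 61.8 FPKM (M-LMSC), with a log2 fold change of -0.49 for M-LMSC and a limma adjusted p of 0.118 without the block, 0.0429 with it and 0.0429 to 0.698 over all settings.

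The other calls with the block were in LIM-domain genes. Pdlim2, whose product binds alpha-actinin, was at 14.7 and 13.8 FPKM (A-LMSC), 9.12 and 11.6 FPKM (PM-LMSC) and 7.73 and 9.47 FPKM (M-LMSC), with a log2 fold change of -0.67 for M-LMSC (limma adjusted p = 0.136 without and 0.0398 with the block, range 0.0398 to 0.657). Crip1 was at 6.60 and 7.13 FPKM (A-LMSC), 6.72 and 10.9 FPKM (PM-LMSC) and 9.81 and 16.9 FPKM (M-LMSC), with a log2 fold change of 0.82 for M-LMSC (limma adjusted p = 0.271 without and 0.0446 with the block, range 0.0422 to 0.859). Haematopoietic markers were highest in the M-LMSC libraries in which these calls were made, and their part in them was not tested. Rhoa, which drives stress-fibre assembly, was at 72.6 to 93.2 FPKM, and its effector kinases Rock1 and Rock2 were at 3.64 to 7.74 FPKM and 16.3 to 40.2 FPKM. Both M-LMSC libraries were below both A-LMSC libraries for Rhoa, while the stages overlapped for Rock1 and Rock2. Myocd, the smooth-muscle and heart cofactor of Srf, was at 0.0557 to 0.159 FPKM and was not tested.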

How the data were processed

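RNA-seq of cultured LMSCs was analyzed in 6 libraries, 2 for each of 3 stages; the third library of each stage in the study was not analysed here. The authors deposited FPKM values for 34745 genes in 1 column per library. Per the labels, the submitters' processing notes name TopHat2 2.0.9 and mm10, and the counter, the annotation and the use of strand are not given in the sources used here. The study counts mice as replicates while the labels do not name the animals, so p-values may measure a spread that is partly technical. The table holds no counts, and depth (14820000 to 20760000 fragments) was estimated from the steps of low values of 1-exon genes, of which 95.7% to 97.1% fell within 0.05 of a whole number.

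Values were fitted as log2(FPKM + 1) with limma 3.58.1 in R 4.3.3 (lmFit, then eBayes with trend), with 1 mean per stage over all 6 libraries, for the 10279 genes whose mean reached 1 FPKM. Adjustment over these genes followed Benjamini and Hochberg, with a threshold of 0.05. The fit was run on simulated data whose changed genes had larger fold changes than most members. That run does not show how well small changes are called. Libraries with the same replicate number deviated together from their stage means (r = 0.24 for A-LMSC with PM-LMSC, 0.31 for A-LMSC with M-LMSC and 0.49 for PM-LMSC with M-LMSC, over genes), so the block is given beside results it changed; the labels do not say what the numbers share. Gene positions are from GENCODE M21, which held 34267 of the identifiers. A gene name was repeated in 57 cases, none of them a member, and members were found by name.

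The members and lists were chosen with earlier results of these data known. Full statistics were given for members called in either fit and for the member with the highest level and the one with the largest change of each role group; any member could be named, and of the wider list those called or with the 3 largest changes. Alternatives were the pseudocount (0.1), no filter, quantile normalization, median centring, the stages compared alone, the replicate block, a correction for GC content and length, a fold threshold and leaving out each library.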

Additional observations from a re-analysis of the deposited data

How the results depend on the processing

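With 2 libraries a stage, the limma calls changed with the setting, while the direction of the fold change of both later stages held in every setting run for the members given full statistics, Cnn1 and Actg2, except Actb, Tpm4 and Tagln, and Acta2, whose rank 1 in each library makes its fold change 0 by construction under quantile normalization. For PM-LMSC against A-LMSC, the members called went from 0 to 1 with the stages compared alone and to 1 with the replicate block (0 with the block and the GC and length correction), and from 0 to 2 when a library was left out. For M-LMSC against A-LMSC they went from 0 to 2 with the replicate block and to 1 with the replicate block and the GC and length correction. For M-LMSC against PM-LMSC they were 0 to 1 when a library was left out. For both later stages the 1 call became 0 with no filter on low values, 0 with median centring, 0 with an absolute log2 fold change of at least 1, 2 with the replicate block, and 0 to 2 when a library was left out. The calls of the wider list went from 0 to 5 with the replicate block and 3 with the block and the GC and length correction for M-LMSC against A-LMSC (0 to 1 when a library was left out), and from 0 to 1 with the replicate block for M-LMSC against PM-LMSC and for both later stages. The median log2 fold change of the members for M-LMSC against A-LMSC went from -0.12 to -0.060 with quantile normalization, -0.166 with median centring and -0.066 with the block and the GC and length correction, and lay between -0.131 and -0.059 when a library was left out. For M-LMSC against PM-LMSC it went from -0.08 to -0.025 with quantile normalization and lay between -0.126 and -0.038 when a library was left out. For both later stages it went from -0.03 to -0.071 with median centring and lay between -0.074 and -0.021 when a library was left out. The members whose later libraries were all on one side of A-LMSCs numbered 14 (6 above and 8 below). They were 5 above and 5 below with quantile normalization, 4 and 9 with median centring, and 8 and 5 with the GC and length correction. Leaving out a library can only raise or keep this count, and it gave 15 to 24, the most without PM-LMSC replicate 2. The share of all genes in these settings was not computed. The share of smooth-muscle actins fell by 1.88 percentage points to the later stages, and the difference lay between -3.93 (without A-LMSC replicate 2) and 0.17 (without A-LMSC replicate 1). For both later stages, Actb turned from -0.05 to 0.064 with quantile normalization and lay between -0.31 and 0.21 when a library was left out. Tpm4 turned from 0.03 to -0.012 with median centring and -0.039 with the block and the GC and length correction, and lay between -0.048 and 0.10 when a library was left out. Tagln turned from 0.18 to -0.027 with quantile normalization. The replicate block changed no call of a member or of the wider list beyond those given. The cause of these changes was not tested. An outlier test needs at least 4 libraries a stage and was not run.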
